A study of Mus musculus with 4 samples.

Results

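The genes described here are the erasers and readers of N6-methyladenosine (m6A), a methyl mark on adenosines of mRNA: the demethylases *Fto* and *Alkbh5*, the YTH domain readers *Ythdf1*, *Ythdf2*, *Ythdf3*, *Ythdc1* and *Ythdc2*, and the readers *Igf2bp1*, *Igf2bp2* and *Igf2bp3*. They were taken by gene symbol from the deposited count table, and 10 of its 48587 genes met this rule. All 10 passed the filter on low counts, among 18916 genes tested. RNA came from primary vascular smooth muscle cells (VSMCs), grown out of the descending aorta of C57BL/6J mice aged 8 to 12 weeks, after the adventitia was digested away and the endothelium scraped off. Cultures at passage 5 to 7 received lentivirus for 24 hours and were collected 48 hours after fresh medium was added. The shCTR group expressed a nontargeting hairpin directed at a plant microRNA from a pLKO.1 vector that also encodes GFP, and the shMettl14 group expressed a single hairpin against *Mettl14*, so effects of that hairpin and of loss of *Mettl14* cannot be told apart. Each group had 2 libraries, labelled with the letters A and B. No source used here states that these came from separate cultures, so the p-values measure only the spread between these libraries, which may be technical.

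The m6A mark is written by a complex built around METTL3 and METTL14, can be removed by the demethylases FTO and ALKBH5, and is bound by reader proteins that set the fate of the marked mRNA. YTHDF proteins are cytoplasmic readers linked to translation and decay, YTHDC1 is a nuclear reader linked to splicing and export, and YTHDC2 is an RNA helicase known mainly from germ cells. IGF2BP proteins bind mRNAs through KH domains and are known for stabilizing their targets, and *Igf2bp1* and *Igf2bp3* are mostly embryonic and tumor-associated genes. The comparison of shMettl14 with shCTR asks whether the genes that remove and read the mark differed in mRNA level when its writer was silenced.

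Libraries held between 114343653 and 124815868 counts. *Mettl14*, the targeted gene, had 2050 and 2154 counts in shCTR A and B and 546 and 568 counts in shMettl14 A and B, so both shMettl14 libraries were below both shCTR libraries. Levels are given below as counts per 1000000 (CPM), scaled by TMM factors. Summed levels of 8 smooth muscle markers were 6799 and 5772 CPM in shCTR A and B and 4442 and 4811 CPM in shMettl14 A and B. The summed levels of 6 endothelial markers ranged from 1183 to 1814 CPM, those of 5 adventitial fibroblast markers from 84.4 to 171.0 CPM, and those of 6 leukocyte markers from 8.22 to 10.6 CPM. Smooth muscle markers thus had the largest sum of these lists in every library, but most of it came from *Acta2* and *Tagln*. *Acta2* ranged from 2072.9 to 3546.7 CPM and *Tagln* from 1615.9 to 2449.5 CPM. The endothelial markers *Cdh5* (507.8 to 817.8 CPM) and *Pecam1* (477.0 to 820.2 CPM) were above each of the other smooth muscle markers in every library. *Cdh5* and *Pecam1* made up most of the endothelial sum in every library. The remaining endothelial markers were lower: *Tie1* at 134.5 to 171.0 CPM, *Vwf* at 16.4 to 18.9, *Tek* at 5.04 to 10.9 and *Kdr* at 5.06 to 9.75 CPM. In such bulk samples, fewer cells of a type and less RNA per cell cannot be told apart.

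Of the 10 erasers and readers, 0 passed an adjusted p under 0.05 in edgeR's quasi-likelihood test of shMettl14 against shCTR, and over all genes tested the share called was 0%. DESeq2 also called 0 of the 10. The edgeR test did not call *Mettl14* either, the targeted gene, at a log2 fold change of −2.08. Its 0 calls therefore do not show that the levels of the 10 were unchanged. At an unadjusted p under 0.05, 1 of the 10 was lower (*Fto*) and 0 were higher, where 1.01% of all genes tested were lower and 0.656% higher (191 and 124 genes, or 103 and 234 when libraries were scaled by their totals alone). The shMettl14 and shCTR libraries did not overlap for 3 of the 10. *Fto* was the 1 that was lower, against 13.3% of all genes, and *Alkbh5* and *Igf2bp1* were the 2 that were higher, against 14.7%. The median log2 fold change of the 10 was 0.04, beside 0.01 for all genes tested. Their median absolute log2 fold change was 0.18, beside 0.23 for all genes tested.

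**Figure D1:**
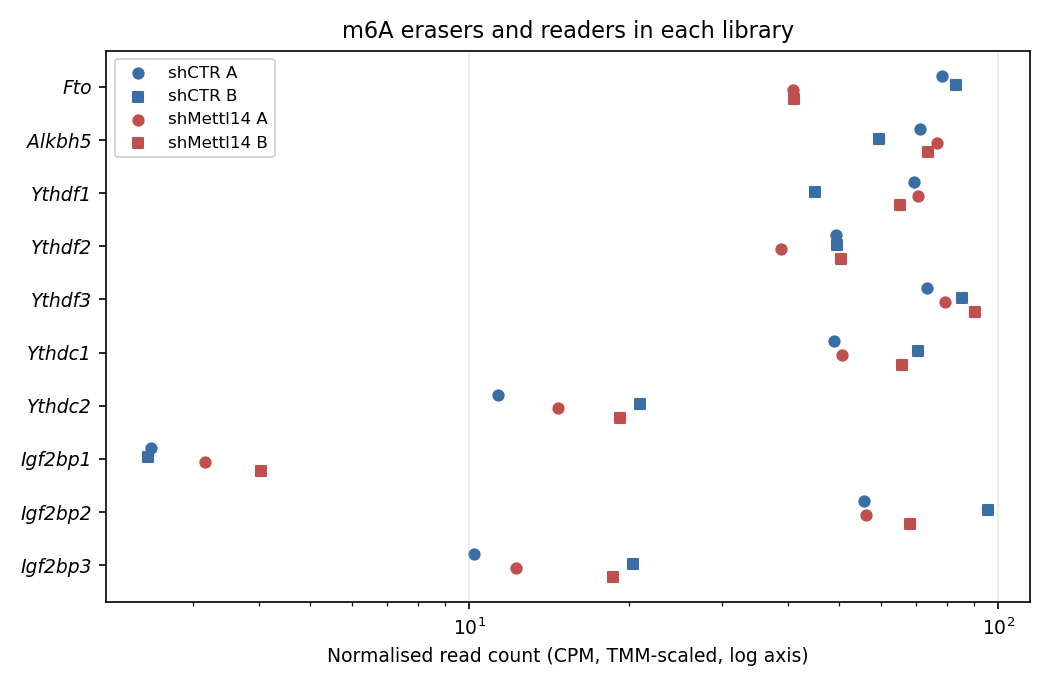
Normalised read counts (CPM scaled by TMM factors, log axis) of the 10 erasers and readers, 1 point per library, with shCTR in blue, shMettl14 in red, letter A as circles and letter B as squares. *Fto* lay at 78.1 and 83.3 CPM in shCTR and at 40.9 and 41.0 CPM in shMettl14, while the points of most readers were intermixed or split by letter.

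*Fto* encodes a dioxygenase that removes methyl groups from m6A and from the related cap-adjacent m6Am. The gene (ENSMUSG00000055932) lies on the plus strand of chromosome 8 of GRCm38 from 91313525 to 91668439. It had 8876 and 8998 counts in shCTR A and B and 4853 and 5336 counts in shMettl14 A and B, which are 78.1 and 83.3 CPM against 40.9 and 41.0 CPM. Both shMettl14 libraries were at nearly the same level, and both were far below the shCTR libraries. The mean was 80.7 ± 3.65 CPM in shCTR and 40.9 ± 0.11 CPM in shMettl14 (SD, n = 2 libraries each), so the shMettl14 mean was 50.7% of the shCTR mean. The fitted log2 fold change was −0.98 with a standard error of 0.19 and a 95% confidence interval from −1.46 to −0.50, and the edgeR test gave an unadjusted p of 0.0033 and an adjusted p of 1.0. It therefore did not pass the test over all genes.

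Within letter A the log2 ratio of *Fto* was −0.93 (95% counting interval −0.99 to −0.88), and within letter B it was −1.02 (−1.07 to −0.97). These intervals are exact binomial limits on the counts of 1 library a side and cover counting error only. Leaving out each library in turn gave log2 fold changes between −1.02 and −0.94. The eraser thus kept its direction and nearly its size in each letter and without each library. The summed levels of the smooth muscle markers did not overlap between the same groups. Their log2 fold changes had a median of −0.41 and were negative for 8 of 8, where 48.8% of all genes tested were negative, but 0 of the 8 passed an adjusted p under 0.05. Ratios were negative within each letter for 6 of the 8, and for 5243 of the 18916 genes tested. Taken singly, 3 of the 8 were lower without overlap between the groups, against 13.3% of all genes tested. Only *Acta2* among the smooth muscle markers had an unadjusted p under 0.05 (log2 fold change −0.58, edgeR unadjusted p = 0.038, adjusted p = 1.0). The part of this in the result for *Fto* was not tested.

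The 3′ UTR of *Fto* holds a word, GTGTTAA, that came from an earlier scan of these same libraries for words whose carriers were lower with shMettl14, so that its presence in *Fto* is no independent evidence. Of the 10 erasers and readers, 4 (*Fto*, *Alkbh5*, *Ythdf2* and *Ythdc2*) hold 1 copy each in their longest annotated 3′ UTR on the transcribed strand. The word occurs in 2067 of 20657 genes with an annotated 3′ UTR (10.01%), but the median longest 3′ UTR is 989 bases over all genes and 2066 bases over the 10. *Fto* has 4 coding transcripts with an annotated stop codon, which end at different places, and 3 of them hold a copy, each at a different site. The sites are shown because these are the stretches of the gene with the largest difference that carry the word, beside those of 2 genes that also carry it. The word is in capitals, and the lines run 5′ to 3′ on the transcribed strand of GRCm38.
Fto, chr8:91666614-91666643, plus strand: agtctgacttgGTGTTAAattagagcaccc
Fto, chr8:91442549-91442578, plus strand: aaactaaaagaGTGTTAAgtacacactact
Fto, chr8:91525427-91525456, plus strand: atgcccggcaaGTGTTAAcagaagaggtac
Alkbh5, chr11:60557921-60557950, plus strand: gcgcctctccaGTGTTAAgcaaggactcta
Ythdf2, chr4:132185943-132185972, minus strand: ttagacagtttGTGTTAAtggccctgcatg
The 4 carriers did not share a direction: *Fto* was lower in both letters, *Alkbh5* was higher in both, and *Ythdf2* and *Ythdc2* differed in sign between letters. Among all tested genes with an annotated 3′ UTR, the 1598 carriers had a median log2 fold change of −0.05 and the 12549 others one of −0.01. The word was picked for lower carriers in these same libraries, so this difference was set by that choice and is no evidence about the word. Carriers and others were not matched for 3′ UTR length.

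*Alkbh5*, the second m6A demethylase, lies on the plus strand of chromosome 11 from 60536381 to 60558512 (ENSMUSG00000042650). It had 71.2 and 59.4 CPM in shCTR A and B and 76.7 and 73.8 CPM in shMettl14 A and B. Both shMettl14 libraries were above both shCTR libraries, by a margin over shCTR A that was small beside the gap between the shCTR libraries. It had a log2 fold change of 0.20 (standard error 0.20, interval −0.31 to 0.72, unadjusted p = 0.35), and its ratio was 0.11 in letter A and 0.31 in letter B. Without shCTR B it was 0.077 and without shCTR A 0.35.

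Since the 2 erasers differed in opposite directions, their ratio within each library, which needs no scaling between libraries, was examined after the values had been seen and was given no test. *Fto* had 1.10 and 1.40 counts for each *Alkbh5* count in shCTR A and B, and 0.53 and 0.56 in shMettl14 A and B. Per kilobase of exon, *Fto* made up 33.5% and 39.2% of the eraser signal in shCTR A and B and 19.7% and 20.4% in shMettl14 A and B. Divided by the longest transcript instead, the share of *Fto* was 57.2% and 63.1% in shCTR and 39.3% and 40.4% in shMettl14. The share of *Fto* was lower in both shMettl14 libraries with either length, but which eraser was the larger part of the pair in shCTR depended on the length used.

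**Figure D2:**
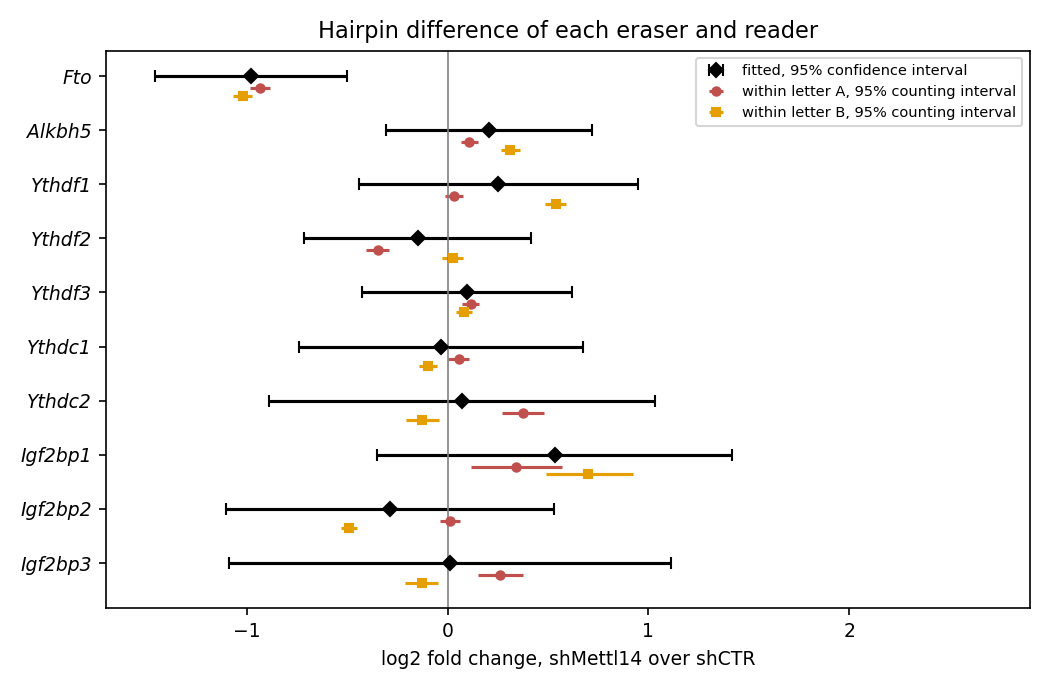
log2 fold change of each eraser and reader, shMettl14 over shCTR, as fitted over 4 libraries (black diamonds, 95% confidence interval) and as the ratio within letter A (red) and letter B (orange), with 95% counting intervals. The interval of *Fto* (−1.46 to −0.50) lies below 0, and the intervals of the 9 other genes span 0.

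The YTHDF readers share most of their sequence and are known to bind many of the same m6A sites. *Ythdf1* (ENSMUSG00000038848), which has been linked to translation of marked mRNAs, had 69.2 and 45.0 CPM in shCTR A and B and 70.6 and 65.3 CPM in shMettl14 A and B. The library shCTR B stood apart at the low end, and the other 3 lay close together. The log2 fold change of 0.25 (standard error 0.27, interval −0.44 to 0.95, unadjusted p = 0.39) rested on that library, since it was −0.03 without shCTR B and 0.60 without shCTR A (unadjusted p = 0.0496, adjusted p = 0.69).

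*Ythdf2* (ENSMUSG00000040025), the reader best known for recruiting the CCR4-NOT deadenylase, had 49.4 and 49.6 CPM in shCTR A and B and 38.8 and 50.4 CPM in shMettl14 A and B. Only shMettl14 A was lower, while shMettl14 B was level with the controls. Its fitted log2 fold change was −0.15 (standard error 0.22, interval −0.71 to 0.41), and it was 0.03 without shMettl14 A.

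*Ythdf3* (ENSMUSG00000047213), which acts together with the other two, had 73.2 and 85.5 CPM in shCTR A and B and 79.3 and 90.4 CPM in shMettl14 A and B. Letter B was higher in both groups, and within each letter shMettl14 was slightly higher. Its log2 ratio was 0.11 in letter A and 0.08 in letter B, and the fitted log2 fold change was 0.10 (standard error 0.20, interval −0.42 to 0.62).

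Within the YTHDF family, the share of each paralog was taken from counts per kilobase of exon. *Ythdf1* made up 46.0% and 33.6% in shCTR A and B and 47.8% and 41.4% in shMettl14 A and B. *Ythdf2* made up 23.8% and 26.9% in shCTR and 19.04% and 23.2% in shMettl14, the smallest share in each of the 4 libraries and lower in both shMettl14 libraries than in either control. *Ythdf3* made up 30.1% and 39.5% in shCTR and 33.2% and 35.4% in shMettl14. The differences in mean share were 4.76, −4.25 and −0.51 percentage points for *Ythdf1*, *Ythdf2* and *Ythdf3*. Exact two-sided permutation tests of 2 libraries against 2 gave p = 0.667, 0.333 and 1.0, and 0.333 is the smallest p that this design allows, so no share could pass 0.05.

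*Ythdc1* (ENSMUSG00000035851), the nuclear reader, had 48.8 and 70.5 CPM in shCTR A and B and 50.7 and 65.8 CPM in shMettl14 A and B. The 4 libraries split by letter and not by hairpin. The log2 fold change between hairpins was −0.03 (standard error 0.27, interval −0.74 to 0.67), and it was 0.08 with library totals alone, a scaling that moved the median of all genes from 0.01 to 0.12. *Ythdc2* (ENSMUSG00000034653, chromosome 18), the helicase reader, had 11.3 and 21.0 CPM in shCTR A and B and 14.7 and 19.3 CPM in shMettl14 A and B. Both shMettl14 libraries lay between the controls, the ratios differed in sign between letters (0.37 in A and −0.13 in B), and the log2 fold change was 0.07 (standard error 0.37, interval −0.89 to 1.03).

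*Igf2bp1* (ENSMUSG00000013415), an oncofetal RNA-binding protein, was the least abundant of the 10, with 284 and 267 counts in shCTR A and B and 376 and 524 counts in shMettl14 A and B. These are 2.50 and 2.47 CPM in shCTR and 3.17 and 4.03 CPM in shMettl14, so that both shMettl14 libraries were above both controls and differed from each other more than the controls did. Its log2 fold change, 0.53 (standard error 0.34, interval −0.35 to 1.42, unadjusted p = 0.18), was the highest among the 10, and its ratio was 0.34 in letter A and 0.70 in letter B. It did not pass the test, and its interval covers both a small reduction and more than a doubling.

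*Igf2bp2* (ENSMUSG00000033581), the member of the family that is also expressed in adult tissues, had 55.7 and 95.5 CPM in shCTR A and B and 56.1 and 67.9 CPM in shMettl14 A and B. The library shCTR B stood above the other 3. The log2 fold change of −0.29 (standard error 0.32, interval −1.10 to 0.53) was 0.15 without shCTR B and −0.62 without shCTR A (unadjusted p = 0.047, adjusted p = 0.69). *Igf2bp3* (ENSMUSG00000029814) had 10.2 and 20.4 CPM in shCTR A and B and 12.2 and 18.7 CPM in shMettl14 A and B, split by letter, with a log2 fold change of 0.01 (standard error 0.43, interval −1.09 to 1.12).

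Of the exon bases of *Igf2bp3*, 18.7% overlap *Malsu1* on the other strand, and the sources used here do not state whether counting used strand, so the counts of these genes could be partly shared. *Malsu1* had 1694 and 1035 counts in shCTR A and B and 1518 and 865 counts in shMettl14 A and B, lower in letter B where *Igf2bp3* was higher. The exons of *Alkbh5*, the YTHDF genes, *Ythdc2* and *Igf2bp2* overlap no other annotated gene, while those of *Fto*, *Ythdc1* and *Igf2bp1* do so over at most 4.62% of their bases.

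*Igf2bp2* made up 83.3% and 82.4% of the IGF2BP family per kilobase in shCTR A and B and 80.6% and 77.2% in shMettl14 A and B, the largest share in every library. *Igf2bp3* made up 13.8% and 16.0% in shCTR and 15.9% and 19.3% in shMettl14, and *Igf2bp1* 2.86% and 1.63% in shCTR and 3.48% and 3.50% in shMettl14. The differences in mean share were −3.94, 2.69 and 1.24 percentage points for *Igf2bp2*, *Igf2bp3* and *Igf2bp1* (exact two-sided permutation p = 0.333, 0.667 and 0.333, with 0.333 the smallest possible). Both shMettl14 libraries had a lower share of *Igf2bp2* and a higher share of *Igf2bp1* than either control, which this design could not test further.

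**Figure D3:**
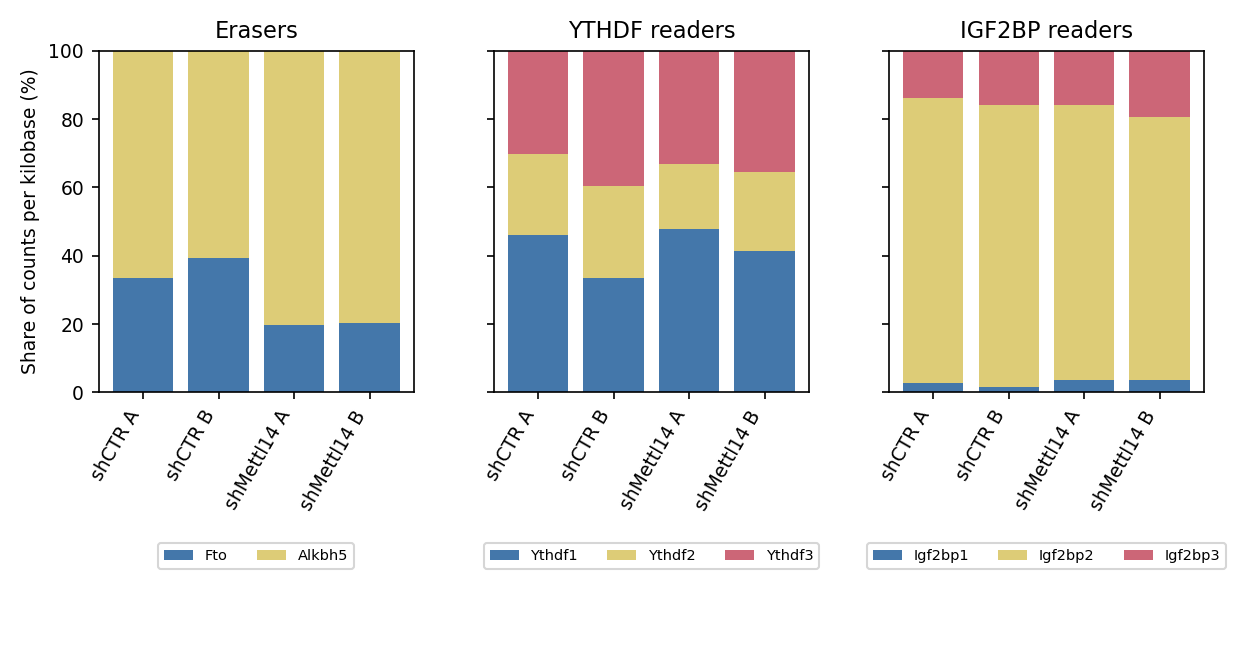
Share of each gene in the summed counts per kilobase of exon (%, stacked bars) of the erasers, the YTHDF readers and the IGF2BP readers in each of the 4 libraries. *Fto* took 33.5% and 39.2% of the eraser bar in shCTR and 19.7% and 20.4% in shMettl14, and *Igf2bp2* took at least 77.2% of every IGF2BP bar.

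For 7 of the 8 readers, the difference between letters was larger in size than the difference between hairpins. The letter term, tested in a fit with hairpin and letter, was called at an adjusted p under 0.05 for 2 of the 10 genes, both higher in letter B, where 6.69% of all genes tested were called higher and 8.95% lower. The hairpin difference came from a fit without the letter (common dispersion 0.18, against 0.042 with it). Standard errors and calls of the hairpin and letter terms are therefore not alike. For *Igf2bp3* the hairpin standard error was 0.43 without the letter and 0.18 with it. With the letter in the fit, 0 of the 10 were called between hairpins. *Igf2bp3* was higher in letter B by a log2 fold change of 0.81 (standard error 0.18, adjusted p = 0.014), and *Ythdc2* by 0.64 (standard error 0.19, adjusted p = 0.041). *Igf2bp2* (0.53, adjusted p = 0.065) and *Ythdc1* (0.45, adjusted p = 0.075) had values on the same side that did not pass. With library totals alone, 1 of the 10 was called.

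The difference between letters had the same sign under both hairpins for these 4 genes. They were named for their letter difference over the same libraries, so the shared sign is no separate evidence. The log2 ratio of B over A for *Igf2bp3* was 1.002 in shCTR and 0.61 in shMettl14, that for *Ythdc2* was 0.89 and 0.39, that for *Igf2bp2* was 0.78 and 0.28, and that for *Ythdc1* was 0.53 and 0.38. It was the wider in shCTR for each of these 4, a difference that was not tested. *Fto* stood at the other end, with a letter difference of 0.05 (standard error 0.15) beside a hairpin difference of −0.98. The absolute letter difference exceeded the absolute hairpin difference for 7 of the 10 genes, and for 12367 of the 18916 genes tested. Summed endothelial markers were 1183 and 1814 CPM in shCTR A and B and 1238 and 1331 CPM in shMettl14 A and B, and 5 of these 6 markers were higher in letter B in both groups and 1, *Tie1*, lower. Summed fibroblast markers were 84.4 and 171.0 CPM in shCTR and 87.5 and 129.4 CPM in shMettl14, mostly *Dcn*, and of these 5 markers 1 was higher in letter B in both groups and 2, *Pdgfra* and *Dpt*, lower. The part of these markers in the letter difference of the readers was not tested.

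**Figure D4:**
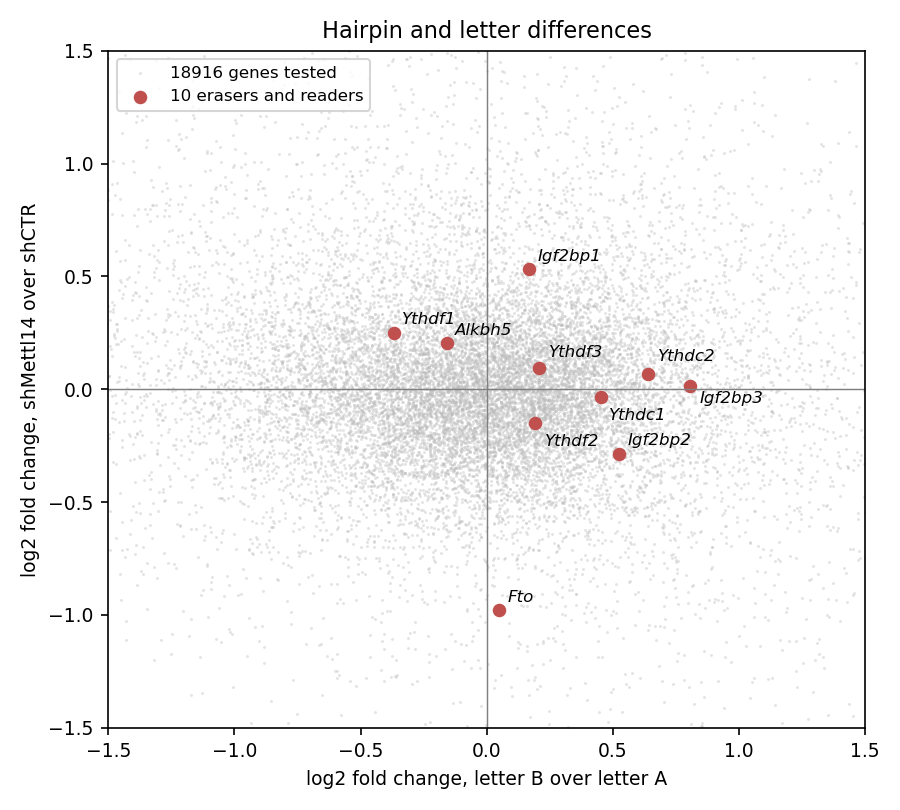
log2 fold change of shMettl14 over shCTR (vertical) against that of letter B over letter A (horizontal) for 18916 genes tested (grey) and the 10 erasers and readers (red), from the same 4 libraries. Axes end at 1.5 in each direction, which leaves 2070 genes outside, and *Fto* lies low near the vertical axis, while *Igf2bp3* and *Ythdc2* lie to the right near the horizontal axis.

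Levels of different genes were compared per kilobase of the union of annotated exons, as the mean and SD of CPM per kilobase over the 4 libraries. *Ythdf1* had the highest level (18.8 ± 3.59), followed by *Ythdf3* (15.3 ± 1.39), *Alkbh5* (11.7 ± 1.27), *Ythdf2* (10.3 ± 1.21), *Igf2bp2* (9.30 ± 2.52), *Fto* (4.67 ± 1.77), *Ythdc1* (4.32 ± 0.79), *Igf2bp3* (1.89 ± 0.60), *Ythdc2* (1.87 ± 0.50) and *Igf2bp1* (0.31 ± 0.08). *Ythdf1* and *Ythdf3* were thus at the top and *Igf2bp1* at the bottom. The ranges over libraries overlapped for the neighbours *Ythdf1* and *Ythdf3*, *Alkbh5* and *Ythdf2*, *Ythdf2* and *Igf2bp2*, *Fto* and *Ythdc1*, and *Igf2bp3* and *Ythdc2*, whose order is therefore not set beyond their spread. The length used matters for genes with many transcripts: divided by the longest transcript, *Fto* was at 12.9, *Igf2bp2* at 13.9, *Ythdc1* at 9.34 and *Igf2bp3* at 3.54 CPM per kilobase. These means pool both groups. By the mean of each group, *Fto* ranked 6 in shCTR and 7 in shMettl14 per kilobase of exon, and 2 in shCTR and 7 in shMettl14 per kilobase of the longest transcript. *Ythdf1* ranked 1 and *Igf2bp1* ranked 10 in both groups with either of these 2 lengths. The longest transcript need not be a coding one. For *Ythdc1* it has 6313 bases, while the longest coding transcript with an annotated stop codon has 3269. The longest such coding transcript has 3184 bases for *Ythdf1* and 3899 for *Igf2bp2*. Mean levels in shCTR were 57.1 CPM for *Ythdf1*, 59.6 for *Ythdc1* and 75.6 for *Igf2bp2*. By these coding lengths *Ythdf1* would be below *Ythdc1* and *Igf2bp2* in shCTR, so its rank of 1 holds only for the 2 lengths used above. The full order by coding length was not computed.

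*Fto* had 5.997 and 6.39 CPM per kilobase in shCTR A and B, above *Ythdc1* (3.58 and 5.16), and 3.14 and 3.15 in shMettl14 A and B, below *Ythdc1* (3.71 and 4.82). On this scale *Fto* was above *Ythdc1* in both shCTR libraries and below it in both shMettl14 libraries. With the longest transcript *Fto* was above *Ythdc1* in both shCTR libraries too (16.6 and 17.7 against 7.73 and 11.2). In shMettl14 it was then above in A (8.68 against 8.03) and below in B (8.72 against 10.4). For *Ythdc1* neither length is that of a coding transcript. The longest coding transcript has 4707 bases for *Fto* and 3269 for *Ythdc1*. With these lengths *Fto* (83.3 CPM) would be below *Ythdc1* (70.5 CPM) in shCTR B. The order of *Fto* and *Ythdc1* in shCTR thus depends on the length used.

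Beyond the 10, lists of genes around the m6A mark held 65 genes, of which 63 were tested. None was called in edgeR's quasi-likelihood test at an adjusted p under 0.05, and at an unadjusted p under 0.05 there were 2 lower (*Mettl14* and *G3bp2*) and 0 higher, against the shares of 1.01% and 0.656% of all genes. DESeq2 called 1, *Mettl14*. The median log2 fold change of the 63 was −0.05. *Mettl14* itself stood at −2.08 on the log2 scale (edgeR standard error 0.25, unadjusted p = 0.00039, adjusted p = 1.0), and among the 7 other subunits of the writer complex 4 were lower and 3 higher, with 0 at an unadjusted p under 0.05.

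*G3bp2*, a stress granule protein, is listed among the cofactors of IGF2BP proteins and stress granule proteins. It had 60.7 and 65.2 CPM in shCTR A and B and 29.9 and 31.5 CPM in shMettl14 A and B, so that both shMettl14 libraries were below both controls. Its log2 fold change was −1.03 (edgeR standard error 0.19, interval −1.52 to −0.55, unadjusted p = 0.0029, adjusted p = 1.0), and its ratio was −1.02 in letter A and −1.05 in letter B, beside −0.93 and −1.02 for *Fto*. The gene model *Gm26582* on the opposite strand covers 23.7% of its exon bases. The other 11 genes of this list, 8 lower and 3 higher, had unadjusted p-values above 0.05.

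In the remaining lists no gene had an unadjusted p under 0.05. Of 6 other m6A and m6Am methyltransferases, 3 were lower and 3 higher. The smallest p was that of *Trmt112*, the cofactor of METTL5 (log2 fold change −0.28, edgeR unadjusted p = 0.22), and 39.1% of its exon sequence is shared with genes of the opposite strand. Of 7 other AlkB homologues, relatives of FTO and ALKBH5, 5 were lower and 2 higher. The DNA repair enzyme *Alkbh2* had the smallest p (log2 fold change −0.28, edgeR unadjusted p = 0.62). Of 12 other m6A-binding proteins, 8 were lower and 4 higher. The smallest p belonged to *Fxr1*, a relative of the fragile X protein (log2 fold change −0.48, edgeR unadjusted p = 0.096), with −0.49 in letter A and −0.48 in letter B.

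Of 12 partners of YTHDF and YTHDC proteins, 11 were tested, 6 lower and 5 higher. The scaffold protein *Safb* had the smallest p (log2 fold change −0.24, edgeR unadjusted p = 0.30). The germ cell partners of YTHDC2 were near the limit of detection: *Meioc* had 13 to 31 counts per library, and *Rbm46* had 17 and 7 counts in letter A and 0 in letter B, which allows up to 3 counts there. Of 8 oncofetal genes, 7 were tested, 3 lower and 4 higher. *Afp* had the smallest edgeR p (0.072), with 191 and 40 counts in shCTR A and B and 7 and 39 in shMettl14 A and B, so that its log2 fold change of −2.50 (standard error 1.10) rested on 1 library a side. *Lin28a* had 0 counts in all 4 libraries, which allows up to 0.0262 CPM in each by library totals, without TMM factors. *Hmga2* was abundant and higher in letter B, as *Igf2bp3* was, with 18453 and 39713 counts in shCTR A and B and 23137 and 46180 counts in shMettl14 A and B. In the same list, *Lin28b* was also higher in letter B in both groups, while *Igf2*, *Hmga1*, *H19* and *Arid3a* were lower there in CPM in both. Whether the levels of *Hmga2* and *Igf2bp3* are related was not tested.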

How the data were processed

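Poly-A–enriched, stranded, paired-end mRNA libraries were made by the authors, mapped with STAR to mm10 (GRCm38, Ensembl annotation) and counted over genes with featureCounts. Raw counts were deposited. Tool versions, the strand setting and the treatment of multi-mapping reads are not given in the sources used here. No other column of per-sample values was left unused.

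The 4 libraries were tested with edgeR 4.0.16 in R 4.3.3 (TMM factors, filterByExpr, robust quasi-likelihood fit, Benjamini-Hochberg adjustment over 18916 genes, threshold 0.05). Standard errors were derived from the log2 fold change and its F statistic. Within-letter ratios used log2 CPM with a prior count of 2. A count of 0 allows up to 3 counts, or 0.0262 CPM at the lowest depth, taken from library totals without TMM factors. Alternatives were RLE and upper-quartile factors, library totals, other filters, DESeq2 1.42.0, a replicate block, each library left out, a prior count of 0.5, and other lengths. Gene places, exon lengths, stop codons and sequences came from GENCODE M21 on GRCm38. The paper names another annotation release, of Ensembl, for its reads. Lengths, overlaps and levels per kilobase given here may thus differ from those of the exons that were counted. Of the listed genes, *Virma* was matched through its older symbol. The edgeR fit was tried on simulated counts with no difference between letters and a spread below that of these libraries (common dispersion 0.18). That trial therefore does not show how often the fit would find a real difference here.

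The members and lists were chosen with earlier results of these data known. Genes named were the 10 members, *Mettl14*, and from each list every gene with an unadjusted p under 0.05 or otherwise the smallest. *Malsu1*, *Meioc*, *Rbm46*, *Lin28a*, *Hmga2* and the oncofetal genes set beside it, the neighbours of *Fto*, the word in the 3′ UTR and the eraser ratio and share were chosen after values were seen.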

Additional observations from a re-analysis of the deposited data

How the results depend on the processing

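The count of 0 erasers and readers called between hairpins held under the other normalizations and filters, DESeq2 and each library left out, and was 1 (*Fto*) at an unadjusted p under 0.05. Under these settings and the replicate block, *Fto* had log2 fold changes from −1.02 to −0.87 and adjusted p-values from 0.070 to 1.0. No source used here states what the letters mark, and with 2 pairs they were not taken to pair the libraries. With the letter as a replicate block, 0 of the 10 and 9 of all genes were called, the correlation of same-letter deviations was 0.58 over 18916 genes, and *Fto* had an unadjusted p of 7.0e-05 and an adjusted p of 0.070. Genes of the lists called were 0 in the main test, 1 with DESeq2, 1 with the replicate block (*Mettl14* in both, with an adjusted p of 0.0039 under the block) and 2 at an unadjusted p under 0.05. Of the 10 erasers and readers, 1 was called between letters with library totals alone in place of 2.

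When single libraries were left out, *Alkbh5* ranged from 0.077 to 0.35, and readers changed direction: *Ythdf1* ranged from −0.030 (without shCTR B) to 0.60, *Ythdf2* from −0.35 to 0.028 (without shMettl14 A), *Ythdf3* from −0.0071 (without shCTR A) to 0.21, *Ythdc1* from −0.27 to 0.25 (0.14 without shMettl14 A, 0.25 without shCTR B), *Ythdc2* from −0.30 (without shCTR A; −0.13 without shMettl14 B) to 0.58, *Igf2bp2* from −0.62 to 0.15 (without shCTR B), and *Igf2bp3* from −0.40 (without shCTR A; −0.32 without shMettl14 B) to 0.60. *Ythdc1* was at 0.082 with library totals alone. The cause was not tested. Differences in family share ranged without single libraries from −1.45 to 10.98 percentage points for *Ythdf1*, from −5.21 to 4.18 for *Ythdf3*, from −6.32 to −2.18 for *Ythdf2*, from −5.60 to −2.27 for *Igf2bp2*, from 1.04 to 4.35 for *Igf2bp3* and from 0.63 to 1.86 for *Igf2bp1*, and without length correction that of *Ythdf3* was 0.11. With the longest transcript as length, levels were 12.9 for *Fto*, 9.34 for *Ythdc1*, 13.9 for *Igf2bp2* and 3.54 for *Igf2bp3* CPM per kilobase. A prior count of 0.5 left every within-letter ratio inside its counting interval. Over all genes, 0 were called in the main test and 5 with DESeq2, and those at an unadjusted p under 0.05 numbered 315 in the main test, 471 without the filter, 1941 with the replicate block and from 78 to 1399 without single libraries, where the lone library of a group is assumed to vary like the others.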

Other observations

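The genes around *Fto* on chromosome 8 were looked up after the value of *Fto* had been seen. *Rpgrip1l*, a gene of the primary cilium whose minus-strand transcript starts 263 bases from the start of *Fto* and runs the other way, had 11.2 and 20.0 CPM in shCTR A and B and 14.5 and 16.9 CPM in shMettl14 A and B, with a log2 fold change of 0.01 (standard error 0.35, 95% confidence interval −0.89 to 0.90). *Aktip*, a gene of the FTS-Hook-FHIP trafficking complex 113549 bases away, had 42.4 and 44.0 CPM in shCTR and 26.3 and 28.3 CPM in shMettl14, so that the groups did not overlap (log2 fold change −0.66, standard error 0.19, edgeR unadjusted p = 0.019 and adjusted p = 1.0). *Irx3*, a homeobox gene beyond the other end of *Fto*, had 6.21 and 6.25 CPM in shCTR and 7.71 and 6.99 CPM in shMettl14 (0.24, unadjusted p = 0.42), and the cell cycle repressor *Rbl2* had 26.7 and 29.8 CPM in shCTR and 33.3 and 36.2 CPM in shMettl14 (0.30, unadjusted p = 0.20). Of these 4 neighbours, the groups thus did not overlap for 1 that was lower and 2 that were higher with shMettl14. Over all genes tested the shares without overlap were 13.3% lower and 14.7% higher. Whether the levels of *Aktip* and *Fto* are related was not tested. The 3′ UTR of *Aktip* holds 0 copies of the word GTGTTAA that is present in 3 transcripts of *Fto*. Those of *G3bp2* and *Rpgrip1l* hold 2 each and that of *Mettl14* holds 1. Because the word came from an earlier scan of these same libraries for words with lower carriers, these copies are no independent evidence either.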
